A study of Mus musculus with 2 samples.

Results

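Granulosa cells carry the receptors and transcription factors that let a follicle answer the gonadotropins. The set described here holds 10 genes of that kind. They are the gonadotropin receptors Fshr and Lhcgr, the transcription factors Foxl2, Nr5a1, Nr5a2, Gata4, Gata6, Foxo1 and Wt1, and the cyclin Ccnd2. Every probe set whose only gene symbol in the platform annotation was one of these names was taken, which gave 26 of the 45101 probe sets on the array and 9 of the 18193 genes with such a probe set. No probe set carried Lhcgr as its only symbol, so the luteinizing hormone receptor was not analysed here.

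The arrays compared ovaries of mice without the progesterone receptor (PR knockout) and of wild-type mice, with 1 Affymetrix mouse genome GeneChip for each genotype. Both groups were C57BL/6 mice aged 24 to 28 days. In both, 5 IU of PMSG, a mare serum gonadotropin with follicle-stimulating action, was followed after 48 h by 5 IU of hCG, a chorionic gonadotropin that stands in for the ovulatory surge of luteinizing hormone. Ovaries were removed 11 h later. The number of mice or ovaries behind each RNA sample, and the part of the receptor gene that was disrupted, are not given in the sources used here.

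Follicle-stimulating hormone binds its receptor, the product of Fshr, which in the ovary sits on granulosa cells and raises cyclic AMP. The forkhead factor FOXL2 keeps granulosa cells from taking on testis features, and the nuclear receptors SF-1 (Nr5a1) and LRH-1 (Nr5a2) and the zinc-finger factors GATA4 and GATA6 drive genes of steroid synthesis and inhibin. FOXO1 is a forkhead factor of granulosa cells in growing follicles, where follicle-stimulating hormone restrains it through AKT, and it is low in luteal cells. Cyclin D2 carries the proliferative response to follicle-stimulating hormone and is shut off when granulosa cells luteinize.

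The regions just before the start of transcription are shown for Foxl2 and Foxo1, the genes in which every probe set above background was higher by a similar amount, and for Fshr, the one receptor read. Each line is the 250 bases before the RefSeq start in GRCm38.p6, written 5′ to 3′ on the gene's strand. The window is chr9:98955357-98955606 on the plus strand for Foxl2, chr3:52268087-52268336 on the plus strand for Foxo1, and chr17:89200676-89200925 on the minus strand for Fshr. Capitals mark the GC box, spelled GGGCGG, the CCAAT box and the palindromic E-box, spelled CACGTG. All were searched on both strands.
Foxl2: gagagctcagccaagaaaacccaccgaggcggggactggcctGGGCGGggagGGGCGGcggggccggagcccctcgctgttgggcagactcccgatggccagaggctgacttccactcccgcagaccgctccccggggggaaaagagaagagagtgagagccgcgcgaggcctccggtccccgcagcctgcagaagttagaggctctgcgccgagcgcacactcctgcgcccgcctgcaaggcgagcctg
Foxo1: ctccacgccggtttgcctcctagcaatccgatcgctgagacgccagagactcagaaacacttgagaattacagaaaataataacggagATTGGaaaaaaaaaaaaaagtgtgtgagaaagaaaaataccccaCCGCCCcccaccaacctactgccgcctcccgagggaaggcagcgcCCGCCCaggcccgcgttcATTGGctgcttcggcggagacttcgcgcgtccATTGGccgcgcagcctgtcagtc
Fshr: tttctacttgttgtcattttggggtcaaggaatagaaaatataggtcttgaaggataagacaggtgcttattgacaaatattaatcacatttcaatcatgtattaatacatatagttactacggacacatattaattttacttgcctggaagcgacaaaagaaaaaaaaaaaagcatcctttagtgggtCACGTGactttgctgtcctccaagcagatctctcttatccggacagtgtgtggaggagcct

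The 3 windows differed in composition. The share of G and C was 70.8% for Foxl2, 56.0% for Foxo1 and 36.8% for Fshr, against a median of 52.4% over 32851 RefSeq promoter windows of the same length. Foxl2 and Foxo1 held 2 GC boxes each, a motif found in 32.7% of all windows, and Foxo1 also held 3 CCAAT boxes, found in 33.8%. Fshr held 1 E-box, found in 6.02%, and neither of the other motifs. A forkhead motif (GTAAACA, in 3.17% of windows), a GATA motif (AGATAA, in 9.99%) and an NR5A motif (CAAGGTCA, in 1.33%) were not found by these letters in any of the 3.

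Values are linear MAS5 signals, the scaled intensities of Affymetrix software, and differences are log2 signal in the PR knockout minus log2 signal in the wild type. The floor for a measurable signal was the median of each array, 37.95 in the PR knockout and 36.2 in the wild type. Of 26 probe sets, 23 reached the floor on both arrays and 3 on neither, so no gene entered through 1 genotype alone. With 1 array per genotype there was no replicate, no difference was tested, and the number of arrays limits the precision. The one spread available was between probe sets of the same gene, a within-gene SD of 0.25 on the log2 scale over 4771 genes, and it leaves out the spread between animals. In whole ovaries, fewer cells of a type and less RNA per cell cannot be told apart.

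The arrays gave no check of the genotype labels. Signals of the 3 Pgr probe sets were 42.8, 21.1 and 3.64 in the PR knockout, against 36.5, 1.03 and 2.97 in the wild type, all close to or under the floors. The array's own controls for RNA integrity differed little. The signal ratio of 3′ to 5′ probe sets was 1.30 in the PR knockout and 1.29 in the wild type for Actb, and 0.830 in the PR knockout and 0.866 in the wild type for Gapdh.

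Most of the 9 genes lay a little higher in the PR knockout ovary, and Foxl2 was the one past 1.5-fold by its brightest probe set. By that probe set 8 of 9 genes were higher and 1 was lower, against 57.7% higher among the 11316 measured genes, but 7 were higher and 2 lower after median centring, and 6 higher and 3 lower with the mean over probe sets. At 1.5-fold, 1 of 9 was higher (11.1%), where 6.54% of all measured genes were, and 0 of 9 were lower, where 4.75% were. Counted by probe set, 5 of the 23 above the floor were at least 1.5-fold higher (21.7%, against 6.18% of all such probe sets) and 0 lower (background 4.8%), but probe sets of a gene share its transcripts. These 5 belong to Foxl2, Gata4, Gata6 and Foxo1. At 2-fold, 0 of 9 were higher (background 1.15%) and 0 lower (background 1.72%). The median log2 difference was 0.27 over the 9 genes and 0.06 over all measured genes, whose quartiles were -0.14 and 0.27. Counts at 1.5-fold over all genes were 740 higher and 538 lower as deposited, but 588 and 639 after median centring, 566 and 613 after quantile normalization, and 517 and 673 after removal of the trend with signal.

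**Figure D1:**
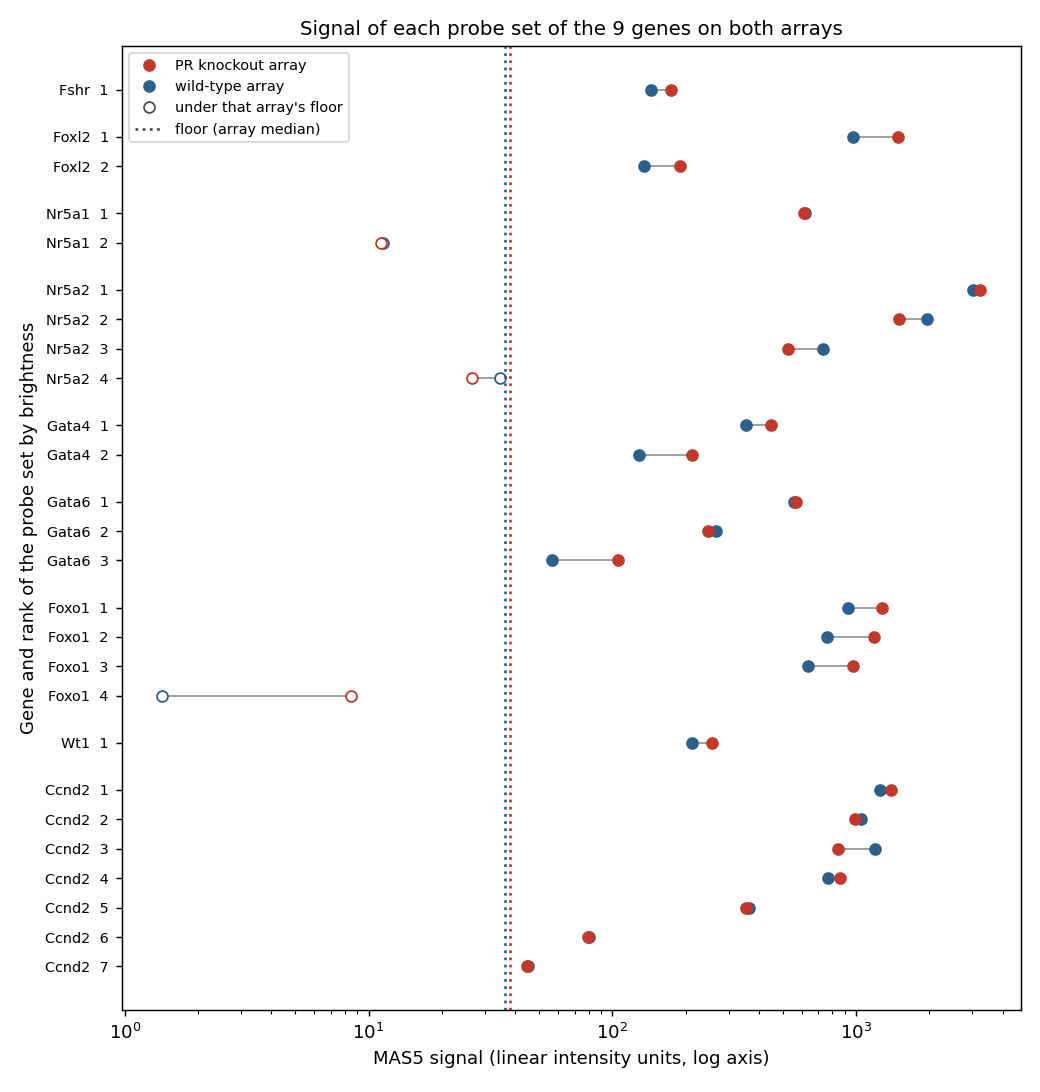
Signal (log axis) of each of the 26 probe sets on the PR knockout array (red) and the wild-type array (blue), with probe sets of a gene ranked by brightness; open circles lie under that array's floor (dotted lines). The 3 probe sets under the floor on both arrays belong to Nr5a1, Nr5a2 and Foxo1, and Foxl2, Gata4 and Foxo1 have the red point to the right in every probe set above the floor.

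Fshr, the receptor for follicle-stimulating hormone, was read by 1 probe set. Its signal was 174 in the PR knockout and 145 in the wild type, 1.21-fold higher. The log2 difference of 0.27 was close to the within-gene SD and ranked 2792 from the most higher of 11316 measured genes. Measured genes of like brightness had a median of 0.12 with an upper quartile of 0.33, so Fshr lay inside the quartiles of its own signal range. Removing the trend with signal brought Fshr to 0.17.

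Foxl2, the forkhead factor of granulosa identity, was read by 2 probe sets, and both were higher in the PR knockout. The brighter had a signal of 1486 in the PR knockout and 974 in the wild type, 1.53-fold higher. The other had 189 in the PR knockout and 134 in the wild type, 1.41-fold higher. The log2 differences, 0.61 and 0.49, were 0.12 apart, a smaller gap than the median of 0.21 over 2835 genes with 2 such probe sets. By its brighter probe set Foxl2 ranked 674 of 11316. That value lay just inside the 1.5-fold threshold, and over the 8 other settings tried it ran from 0.55 to 0.65 on the log2 scale. It was under 1.5-fold after median centring and with the mean over both probe sets.

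The RefSeq gene next to Foxl2 is Foxl2os, a transcript named for the opposite strand, which was looked up after its values were seen. Its 1 probe set had a signal of 1059 in the PR knockout and 524 in the wild type, 2.02-fold higher. The log2 difference of 1.02 exceeded both values of Foxl2. Wt1os, the like-named neighbour of Wt1, was under the floor on both arrays, at 17.6 in the PR knockout and 4.16 in the wild type.

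Foxo1, the forkhead factor that follicle-stimulating hormone restrains, was higher in the PR knockout in each of its 3 probe sets above the floor. The brightest had a signal of 1279.7 in the PR knockout and 923 in the wild type, 1.39-fold higher. The next had 1189 in the PR knockout and 762 in the wild type, and the third had 973 in the PR knockout and 637 in the wild type. These were 1.56-fold and 1.53-fold higher, past the threshold that the brightest probe set did not reach. The range of the 3 log2 differences was 0.17, against a median range of 0.34 over 1192 genes with 3 such probe sets. Its last probe set was far under the floor, at 8.51 in the PR knockout and 1.43 in the wild type, and gives no difference. Foxo1 ranked 1210 of 11316 by its brightest probe set.

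Known FOXO target genes were asked whether they differed alongside. Of 11 in the list, 10 were above the floor on both arrays, and 7 of these were higher and 3 lower in the PR knockout, with a median log2 difference of 0.25. Over all 11, with Irs2, 7 were higher and 4 lower and the median was 0.19. Of all measured genes 57.7% were higher by any size. By at least 1.5-fold, 2 of the 11 were higher (18.2%) and 0 lower, against 6.54% and 4.75% of all measured genes. Fbxo32, a ubiquitin ligase of muscle wasting, was 1.75-fold higher at 444 in the PR knockout and 254 in the wild type, and its probe sets differed by 0.18 to 1.23 in log2. Sesn1, a stress-responsive inhibitor of growth signalling, was 1.67-fold higher at 520.2 in the PR knockout and 312 in the wild type, and its probe sets differed by 0.74 to 0.87. Cdkn1b, the cell cycle inhibitor p27, had a log2 difference of 0.40. On the other side, Bcl6 had -0.30 and Gadd45a -0.08, while Sesn3 had -0.11 by its brighter probe set and 0.13 by the other. Irs2 was measured through the wild type alone, at 32.3 in the PR knockout and 47.0 in the wild type.

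The NR5A receptors showed no shared direction. Nr5a1, which encodes SF-1, had a signal of 612 in the PR knockout and 616 in the wild type by its one probe set above the floor, a log2 difference of -0.01. Its other probe set read 11.3 in the PR knockout and 11.5 in the wild type, under both floors. Nr5a1 had the smallest difference of the 9 genes as deposited, while after median centring or removal of the trend with signal that of Gata6 was smaller.

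Nr5a2, which encodes LRH-1 and is needed in mouse granulosa cells for ovulation, gave values that differed by probe set. The brightest had 3213 in the PR knockout and 3017 in the wild type, a log2 difference of 0.09. The next had 1502 in the PR knockout and 1961 in the wild type (-0.38), and the third had 527 in the PR knockout and 731 in the wild type (-0.47). The dimmest read 26.6 in the PR knockout and 34.5 in the wild type. The range of the 3 measured differences was 0.56, larger than in 80.4% of the 1192 genes with 3 such probe sets. The mean over them was -0.26, so neither a direction nor a size can be given for the gene as a whole.

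The measured probe sets of 2 forkhead and 2 NR5A genes can be set side by side. Differences ran from 0.47 to 0.64 over the 5 probe sets of Foxl2 and Foxo1, and from -0.47 to 0.09 over the 4 measured probe sets of Nr5a1 and Nr5a2. These ranges do not overlap, but the pairs were chosen after their values were seen, and probe sets of a gene share its transcripts. How often other pairs of genes fail to overlap was not computed, so the gap is no result about these genes.

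**Figure D2:**
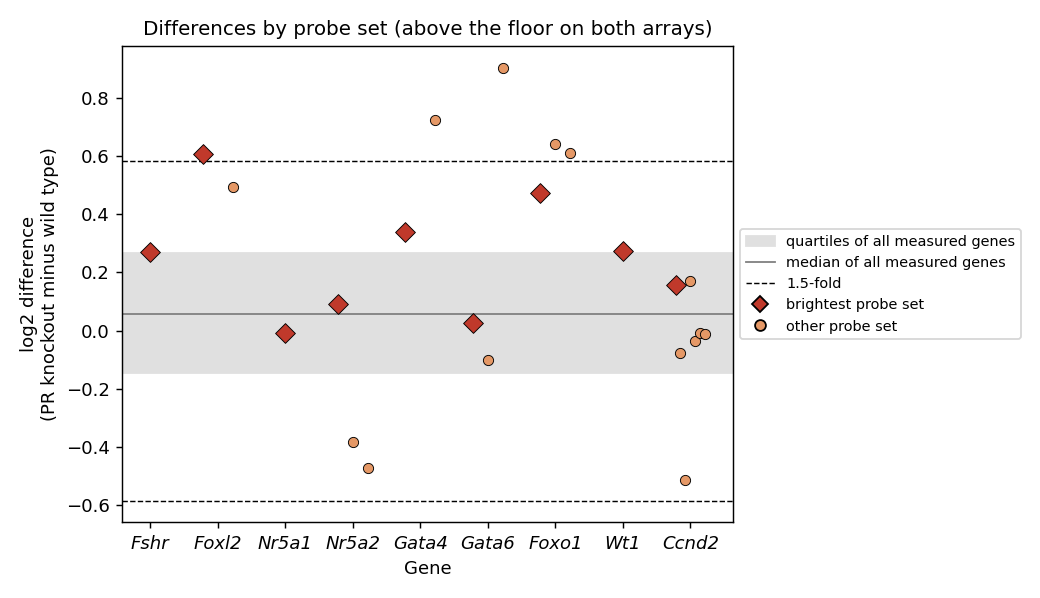
Log2 difference (PR knockout minus wild type) of each probe set above the floor on both arrays, by gene; diamonds are the brightest probe set of a gene and circles the others. The grey band spans the quartiles of all measured genes (-0.14 to 0.27) and dashed lines mark 1.5-fold; the 5 points of Foxl2 and Foxo1 lie above the band, while the probe sets of Gata6 range from -0.10 to 0.90.

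GATA4 and GATA6 act on overlapping promoters in granulosa cells, and their genes read differently. Gata4 had 446 in the PR knockout and 352 in the wild type by its brighter probe set, 1.27-fold higher. Its other probe set had 212 in the PR knockout and 128 in the wild type, 1.65-fold higher. Both were higher, though the gap of 0.38 between their log2 differences was larger than in 76.1% of the 2835 genes with 2 such probe sets.

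Gata6 had 567 in the PR knockout and 557 in the wild type by its brightest probe set, and 248 in the PR knockout and 266 in the wild type by the next. The third and dimmest had 106 in the PR knockout and 56.4 in the wild type, 1.87-fold higher. The first 2 showed nearly equal signals and the third did not. The range of 1.01 on the log2 scale was larger than in 96.6% of the 1192 genes with 3 such probe sets. Where these probe sets lie in the transcript was not analysed here.

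Wt1, a zinc-finger factor of early granulosa cells that is also made by the ovarian surface epithelium, had 257 in the PR knockout and 212 in the wild type, 1.21-fold higher by its 1 probe set. Markers of the surface epithelium lay on the other side. Of 10 above the floor on both arrays, 9 were lower and 1 was higher in the PR knockout, with a median log2 difference of -0.52. It was -0.49 with Epcam, which was measured through the wild type alone. Of all measured genes 57.7% were higher by any size. By at least 1.5-fold 4 of the 11 measured markers were lower (36.4%, background 4.75%) and 0 higher (background 6.54%). Their summed signal was 1355 in the PR knockout and 2022 in the wild type. The keratin genes Krt7 (3.15-fold lower), Krt8 (2.26-fold) and Krt18 (2.06-fold) led. Krt7 was read by 1 probe set, at 141 in the wild type and 44.7 in the PR knockout, the latter close to the floor of 37.95. The 3 probe sets of Krt8 ran from -1.32 to -0.73 in log2. The part of this list in the Wt1 value was not tested.

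Ccnd2, which encodes cyclin D2, differed little in most of its 7 probe sets, 2 of which were higher and 5 lower in the PR knockout. The brightest had 1395 in the PR knockout and 1251 in the wild type, a log2 difference of 0.16. The second had 991 in the PR knockout and 1046 in the wild type (-0.08), and the third had 839.9 in the PR knockout and 1201 in the wild type (-0.52). The third, whose name marks probes that can match other transcripts, stood apart from the others, which lay between -0.08 and 0.17. The remaining probe sets had 859.8, 354, 79.5 and 44.8 in the PR knockout, against 765, 363, 80.0 and 45.1 in the wild type. The mean over all 7 was -0.05, and the difference of 0.16 was under the within-gene SD.

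Kinases that bind D-type cyclins, inhibitors of such kinases, the Rb family genes, E2f1 and Mki67 were listed beside Ccnd2. The median was 0.03 over 11 measured. Of these, 0 were at least 1.5-fold higher in the PR knockout (background 6.54%) and 1 was lower (9.09%, background 4.75%). That gene was Cdkn1a, the inhibitor p21, 2.05-fold lower at 460.4 in the PR knockout and 945 in the wild type, and its other probe set gave a log2 difference of -0.95. Mki67, a marker of dividing cells, had a log2 difference of 0.37, and the partner kinase genes Cdk4 and Cdk6 had -0.05 and 0.12.

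Other genes of granulosa cells in growing follicles were also mostly higher in the PR knockout. The list held 15 genes, of which 14 had a probe set and were measured, 13 of them above the floor on both arrays. Nr0b1, a repressor of SF-1, was measured through the PR knockout alone. Of the 13, 10 were higher and 3 lower, with a median of 0.33. Over all 14 the median was 0.30, and 11 were higher and 3 lower, against 57.7% higher among all measured genes. After median centring 9 of the 14 were higher. At 1.5-fold, 5 of the 14 were higher (35.7%) and 0 lower, against 6.54% and 4.75% of all measured genes. After median centring 4 of the 14 were past 1.5-fold higher, against 5.20% of all measured genes. The list was drawn with earlier results of these arrays known, so its direction is not independent evidence.

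The genes past 1.5-fold in that list were Esr2, Inhbb, Inhba, Bmpr1b and Hsd17b1. Esr2, the estrogen receptor of granulosa cells, was 1.91-fold higher at 342 in the PR knockout and 179 in the wild type. The activin and inhibin subunit genes Inhbb and Inhba were 1.77-fold and 1.60-fold higher. The receptor gene Bmpr1b was 1.63-fold higher and the estradiol-forming enzyme gene Hsd17b1 1.54-fold higher. Apart from Inhbb, each of these genes had only 1 probe set above the floor on both arrays, of 3 for Bmpr1b and 2 for Inhba. The other probe set of Inhbb gave 0.575 on the log2 scale, just under 1.5-fold. Inha, the inhibin alpha subunit, did not share this, at 8073 in the PR knockout and 8399 in the wild type. The gap junction gene Gja1 had a log2 difference of 0.02 by its brightest probe set, the lowest of 5 that reached 0.74, all of them higher. Fst, an activin antagonist that FOXL2 and follicle-stimulating hormone induce, was lower by both probe sets, with -0.23 in the brighter.

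Genes that NR5A and GATA factors activate, mostly of steroid synthesis, had a median of -0.09 over 8 measured. These included the hormone genes Inha and Amh, which also stand in the granulosa list. At 1.5-fold, 0 of the 8 were higher (background 6.54%) and 0 lower (background 4.75%). Star, the carrier that brings cholesterol into mitochondria, was 1.47-fold lower by its brightest probe set, at 4307 in the PR knockout and 6317 in the wild type. Its 3 probe sets were all lower, from -0.68 to -0.55 in log2. Their median of -0.64 was past 1.5-fold, which the brightest did not reach. The androgen-forming enzyme gene Cyp17a1 was 1.38-fold lower. Amh, the hormone of small growing follicles, was 1.20-fold higher at a dim 82.2 in the PR knockout and 68.3 in the wild type.

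Partner proteins of the transcription factors had a median of 0.14, or 0.10 without Nr0b1. Of 11 measured genes, 0 were at least 1.5-fold higher (background 6.54%) and 1 was lower (9.09%, background 4.75%). That gene was Zfpm1, which encodes the GATA cofactor FOG-1, 1.54-fold lower at 128 in the PR knockout and 198 in the wild type. Zfpm2, which encodes the partner of GATA4 known as FOG-2, had a log2 difference of 0.14. The WT1-binding gene Pawr had -0.44 by its brighter probe set and 0.11 by the other. Cited2, a coactivator of WT1 and SF-1 function in the forming gonad, had -0.44 and -0.66.

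Family members outside the set were mostly dim. Of 10 paralogs with a probe set, 5 were measured, with a median of 0.03. Past 1.5-fold, 0 were higher (background 6.54%) and 0 lower (background 4.75%). Gata2 was 1.41-fold lower, Ccnd3 1.38-fold lower and Foxo4 1.35-fold higher. Signals of Tshr, Foxl1, Gata1, Gata3 and Gata5 were under the floor on both arrays.

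Genes through which gonadotropin receptors signal and are turned over had a median of -0.05 over 15 measured. Of these, 0 were at least 1.5-fold higher (background 6.54%) and 1 was lower (6.67%, background 4.75%). Mvk, whose product mevalonate kinase also binds the Lhcgr transcript and promotes its decay, was 1.62-fold lower by its brighter probe set, at 198 in the PR knockout and 319.6 in the wild type. Its other probe set gave -0.04 on the log2 scale. Prkar2b, the protein kinase A subunit that follicle-stimulating hormone induces, was 1.47-fold higher at 4846 in the PR knockout and 3306 in the wild type, and its probe sets differed by 0.55 to 0.78. Appl1, an adaptor of the follicle-stimulating hormone receptor, had 0.30.

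Testis genes that FOXL2 and WT1 bear on were mostly dim. Of 8, 5 were measured, and Sox9, Sox8 and Dmrt1, which define the testis programme, were under the floor on both arrays. The median was -0.10, or -0.04 without Fgf9, which was measured through the wild type alone. At 1.5-fold, 1 gene was higher (20%, background 6.54%) and 0 lower (background 4.75%). Ptgds, a prostaglandin D synthase, was 2.26-fold higher at 537 in the PR knockout and 238 in the wild type, and its other probe set gave 0.82 on the log2 scale. Gdnf was 1.38-fold lower at a dim 68.3 in the PR knockout and 94.2 in the wild type, and Dhh had -0.10.

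Genes of early gonad formation were higher in the PR knockout in all 7 that were measured, against 57.7% of all measured genes. By at least 1.5-fold 2 were higher (28.6%, background 6.54%) and 0 lower, and the median was 0.30. Tcf21, a stromal and gonadal transcription factor, was 2.76-fold higher at 1373 in the PR knockout and 498 in the wild type. Emx2 was 1.54-fold higher and the Wnt pathway ligand gene Rspo1 1.31-fold higher. Stroma markers lay mostly on the same side, with 5 of 6 measured higher and a median of 0.25. At 1.5-fold, 1 was higher (Lum, 1.79-fold, a share of 16.7% against a background of 6.54%) and 0 lower (background 4.75%). Pdgfra was 1.33-fold lower, with all 3 of its probe sets lower, and Col1a1 and Col1a2 had 0.18 and 0.06. The summed signal of the stroma markers was 10815 in the PR knockout and 9330.0 in the wild type. The part of stroma in these values, and in those of Gata4 and Gata6, which stromal and theca cells also make, was not tested.

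**Figure D3:**
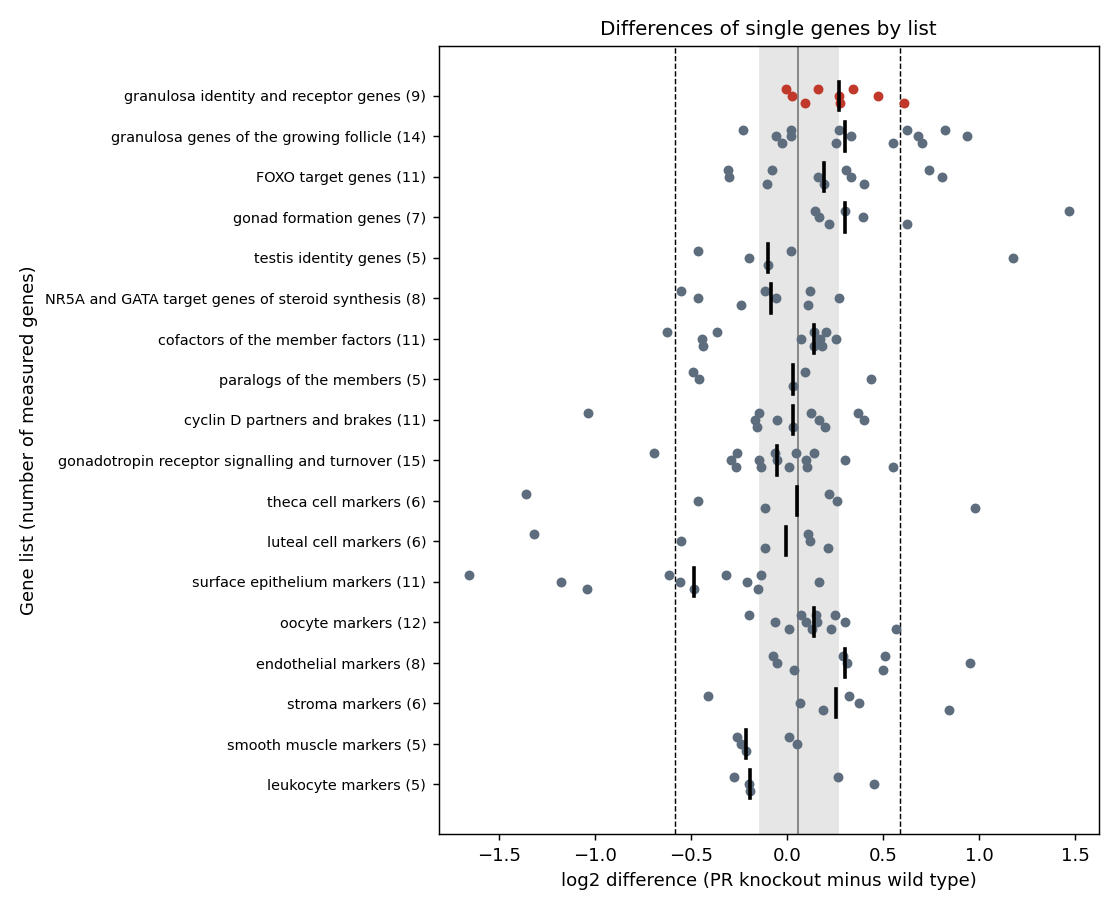
Log2 difference (PR knockout minus wild type) of each measured gene in 18 lists, by its brightest probe set; black bars are list medians, the grey band spans the quartiles of all measured genes and dashed lines mark 1.5-fold. Medians of the identity and receptor genes (0.27) and of other granulosa genes (0.30) lie to the right of the median of all genes (0.06), and that of surface epithelium markers (-0.49) lies to the left.

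Markers of the steroid-making cell types next to granulosa cells differed in both directions. Theca markers had a median of 0.05 over 6 measured, or -0.12 without Gli1, which was measured through the PR knockout alone. At 1.5-fold, 1 was higher (16.7%, background 6.54%) and 1 lower (16.7%, background 4.75%). Ptch1, the hedgehog receptor, was 1.97-fold higher. Hhip, which encodes a hedgehog inhibitor, was 2.57-fold lower by its brightest probe set, and its 4 probe sets ran from -1.36 to -0.28 in log2. The summed signal of the theca markers was 14195 in the PR knockout and 15092 in the wild type. Most of that sum was Cyp11a1, at 10744 in the PR knockout and 11658 in the wild type, so it says little about the other theca markers. Luteal markers had a median of -0.00 over 6 measured, with 0 at least 1.5-fold higher (background 6.54%). Parm1 was the 1 lower (16.7%, background 4.75%), by 2.50-fold. By any size, 3 of the 6 were higher and 3 lower, with Star 1.47-fold lower by its brightest probe set. The summed signal of the luteal markers was 32715 in the PR knockout and 34308 in the wild type. Of the granulosa markers, Fshr, Foxl2, Inha, Esr2 and Fst were well above the floor on both arrays. Amh lay closer to it, at 82.2 in the PR knockout and 68.3 in the wild type. Fshr, Foxl2, Esr2 and Amh read higher in the PR knockout, and Inha and Fst lower. No probe set had Cyp19a1 as its only symbol.

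The differences of the 9 genes were recomputed under other settings. Foxl2, Foxo1, Gata4, Wt1 and Fshr were higher in the PR knockout in each setting that gave a value. Nr5a1 stayed between -0.06 and -0.00. The sign of Nr5a2 (-0.26 to 0.19), Gata6 (-0.03 to 0.28) and Ccnd2 (-0.05 to 0.20) depended on the setting.

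**Figure D4:**
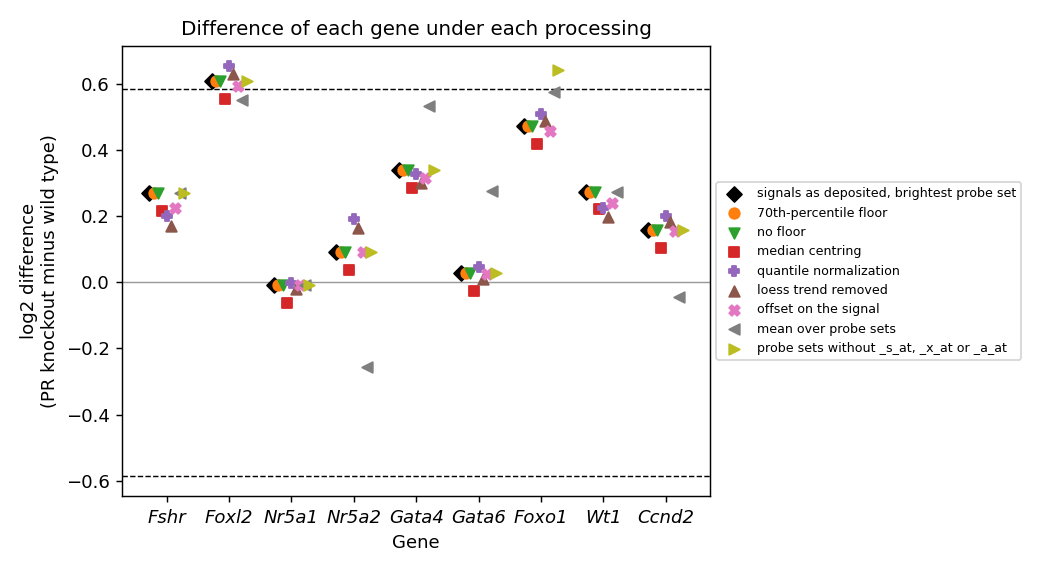
Log2 difference (PR knockout minus wild type) of each of the 9 genes with signals as deposited (black diamonds) and under 8 other settings (colours); dashed lines mark 1.5-fold. Points of Foxl2 lie from 0.55 to 0.65, those of Nr5a1 next to 0, and the mean over probe sets moves Nr5a2 to -0.26.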

How the data were processed

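RNA of 1 PR knockout and 1 wild-type ovary sample was read on 1 array each. The deposited table holds linear intensities that the authors computed with MAS5 and Affymetrix Expression Console version 1, per the submitters' processing notes. The mean after trimming 2% at each end was 150 on both arrays, so each had been scaled by a single factor. The medians over all probe sets were 38.1 in the PR knockout and 36.4 in the wild type. MAS5 subtracts mismatch signals, which makes low values noisy. No genome build is named for the values.

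Control probe sets (64) were set aside. Symbols came from the platform annotation, where 34945 probe sets had 1 symbol, 932 several and 9160 none. RefSeq gene IDs matched 34741 of the first kind. A gene was represented by its brightest probe set (mean of both arrays on the log2 scale). It counted as measured if that reached the array median (the floor) on at least 1 array, and lower signals were set to the floor. Calls were at least 1.5-fold. Calculations used Python 3.11.15, pandas 2.3.3 and statsmodels 0.14.6, and were tested on simulated data.

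The 10 genes and 20 further lists were chosen with earlier results of these data known. All 9 genes read are named with every probe set, and from each other list the 3 largest differences above the floor on both arrays could be named, with others added to describe a list. Alternatives were a 70th-percentile floor, no floor, an offset of 32, median centring, quantile normalization, loess (span 0.3), the mean over probe sets, unique probe sets and 2-fold. RefSeq promoters were found for 5 of the 10 genes.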

Additional observations from a re-analysis of the deposited data

How the results depend on the processing

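Of the 9 genes, the number higher by 1.5-fold or more in the PR knockout, 1 as deposited, was 0 after median centring, 0 with the mean over probe sets, 0 at 2-fold, and 2 (Foxl2 and Foxo1) with probe sets without _s_at, _x_at or _a_at in their names, where Wt1 has none. With the median over probe sets, an alternative chosen after seeing the data, it was 1, but Foxo1 in place of Foxl2. The number at least 1.5-fold lower was 0 in every setting. The median log2 difference of the 9 genes ran from 0.18 without the loess trend to 0.27 with the mean over probe sets, and that of the other granulosa genes from 0.24 after median centring to 0.44 with the 70th-percentile floor. Among single genes only Nr5a2 moved by more than the within-gene SD, to -0.26 with the mean over its probe sets. Over all genes, the 740 at least 1.5-fold higher became 265 with the 70th-percentile floor and 412 with the offset, and the 538 lower became 322 with that floor, where 8160 genes were measured. No paired analysis was possible because each genotype has 1 array. Signals near the floor limit the dimmest probe sets of Gata6 and Ccnd2.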

Other observations

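Markers of other ovarian cell types gave these values, where 6.54% of all measured genes were at least 1.5-fold higher and 4.75% lower. Oocyte markers had a median log2 difference of 0.14 (PR knockout minus wild type) over 12 measured genes with 0 past 1.5-fold. Of the 11 above the floor on both arrays 9 were higher and 2 lower (Figla was measured through the PR knockout alone), and Nlrp5, an oocyte protein needed by the early embryo, was 1.48-fold higher. Endothelial markers had a median of 0.30 over 8, with 6 higher and 2 lower, and 1 at least 1.5-fold higher, Tie1, a receptor of vessel lining cells (1.94-fold). Smooth muscle markers had a median of -0.21 over 5 with 0 past 1.5-fold. Leukocyte markers had a median of -0.19 over 5 of 9 read, with 2 higher, 3 lower and 0 past 1.5-fold. The lower genes were C1qa (-0.28 in log2), Ptprc (-0.20) and Cd68 (-0.19). On the other side were Adgre1 (0.26) and the macrophage receptor gene Csf1r (0.45, or 1.37-fold). The 3 probe sets of Csf1r ran from 0.05 to 0.45.

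Tissues that can be carried along with an ovary were mostly at background. Of 4 oviduct markers, 0 were measured. Of 4 adrenal markers read, 2 were measured and neither passed 1.5-fold, with Cyp11b1 at 339 in the PR knockout and 258 in the wild type. Of 3 fat markers read, only Fabp4, a lipid-binding protein gene that is also made by macrophages and vessels, was measured. It was 4.72-fold lower at 70.9 in the PR knockout and 335 in the wild type, while Adipoq, which defines fat cells, was under the floor on both arrays.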
